A study of Mus musculus with 12 samples.

Results

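The subunits of the mitochondrial respiratory chain and ATP synthase that are encoded in the nucleus were followed in mouse abdominal aorta after loss of CCN2 from smooth muscle cells, with and without angiotensin II (Ang II). Members were the protein-coding entries whose symbol starts with Ndufa, Ndufb, Ndufc, Ndufs, Ndufv, Uqcr, Cox4i, Cox5, Cox6, Cox7, Cox8 or Atp5, or is Sdha, Sdhb, Sdhc, Sdhd or Cyc1, with the Ndufaf assembly factors left out. This rule gave 87 of the 55092 features in the table, under 86 symbols, of which 38 belong to complex I, 4 to complex II, 9 to complex III, 18 to complex IV and 18 to complex V. Another 13 entries with such symbols are annotated as pseudogenes or non-coding and were left out. Ndufa4 was counted with complex I by its symbol, although its protein is now regarded as a complex IV subunit.

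RNA-Seq of poly(A) RNA was available for 12 male mice, 3 in each of 4 groups, with 1 library per mouse. CFS and CFA denote CCN2fl/fl mice, which carry the floxed allele without Cre, given saline or Ang II. CSS and CSA denote CCN2SMCΔ mice (CCN2fl/fl-Myh11-Cre-ERT2) given saline or Ang II. All mice, the controls included, had received 5 doses of tamoxifen on successive days from 8 weeks of age and a pause of 2 weeks before the pumps were implanted, and Ang II ran at 500 ng/kg/min until tissue collection at day 7. Because the Myh11 promoter drives the recombinase, deletion was aimed at smooth muscle cells and meant to spare other cells of the wall. Recombination by cell type was not tested here. The comparisons ask whether the genotype alters these transcripts under Ang II (CSA against CFA) and under saline (CSS against CFS), whether Ang II alters them within each genotype, and whether the Ang II effect differs between genotypes. P-values measure the spread between these mice only.

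Complexes I and II pass electrons from NADH and succinate to ubiquinone, complex III passes them on to cytochrome c, and complex IV (cytochrome c oxidase) hands them to oxygen, while complex V makes ATP from the proton gradient that complexes I, III and IV build. All of these except complex II also contain subunits encoded by the mitochondrial genome, so each working complex draws on transcripts from both genomes. Several complex IV subunits exist as a broadly expressed isoform and a restricted one, the latter found mainly in heart, skeletal muscle and brown fat, in lung, or in testis. Contractile smooth muscle holds fewer mitochondria than heart muscle and covers part of its energy need by glycolysis.

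Depth, recovered from the steps between the lowest values, ranged from 14558580 to 23107786 fragments per mouse. The lowest was CSA mouse 03, which also had the fewest features above 0 (18883, beside 24761 and 24012 in CSA mice 01 and 02). Library weights estimated by limma were 0.06753 for CSA mouse 03 and 1.307 and 2.503 for CSA mice 01 and 02. The 8 smooth muscle markers, among them Myh11 and Cnn1, were detected in every mouse and summed to 5532 to 8420.0 FPKM (fragments scaled to gene length and library size) in CFA and 799.8 to 959 FPKM in CSA. Ccn2 itself averaged 766 ± 318 FPKM in CFS, 554 ± 106 in CSS, 894 ± 289.7 in CFA and 328 ± 71.9 in CSA (SD, n = 3). It was lower in CSA than in CFA (log2 fold change -1.41, SE 0.34, adjusted p = 0.00622 by limma), whereas CSS and CFS were not separated (-0.40, adjusted p = 1.0). In such bulk tissue, fewer cells of a type and less RNA per cell cannot be told apart.

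A pair of libraries stood apart in the member genes. Within CSA, mouse 03 was the lowest of all 12 mice in 43 of 84 tested members (51.2%, beside 29.9% of all tested genes) and the highest in 10 (11.9%, beside 26.9%). It was more than 2-fold below the mean of CSA mice 01 and 02 in 27 members (32.1%, beside 19.2% of all tested genes) and more than 2-fold above in 1, Uqcrb (1.19%, beside 6.01%). CSA mice 01 and 02 differed by more than 2-fold in 0 of the 84 members, beside 3.67% of all genes. The deviation of mouse 03 ran with base composition, with a Pearson coefficient of -0.44 between its log2 difference and transcript GC content across the 84 members and -0.51 across 14407 tested genes, which are genes of 1 library and not independent replicates. The members that were low in it had a median GC content of 52.5%, beside 50.1% for those within 2-fold and 40.4% for Uqcrb. Mouse 02 against mouse 01 gave a Pearson coefficient of -0.25 across the members and -0.05 across all genes. For each member's deviation from its mean over the 12 mice, the Spearman coefficient with GC content was -0.473 in mouse 03. This coefficient was -0.071 and -0.15 in CSA mice 01 and 02, and 0.188 to 0.345 in the mice of the other groups. Cytochrome c1, encoded by Cyc1, stood at 28.9 and 31.8 FPKM in CSA mice 01 and 02 and at 5.76 in mouse 03. Atp5k, the e subunit of ATP synthase, stood at 23.3, 23.6 and 2.97 FPKM in the same order. Uqcrb went the other way at 45.3, 49.2 and 103 FPKM. In the saline controls, CFS mouse 70 was the highest of the 12 in 39 of the 84 members (46.4%, beside 6.63% of all genes), and its 8 white adipocyte markers summed to 3082 FPKM, beside 179 to 1064 FPKM in the other mice. The part of fat or of GC content in either library's member values was not tested.

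**Figure D1:**
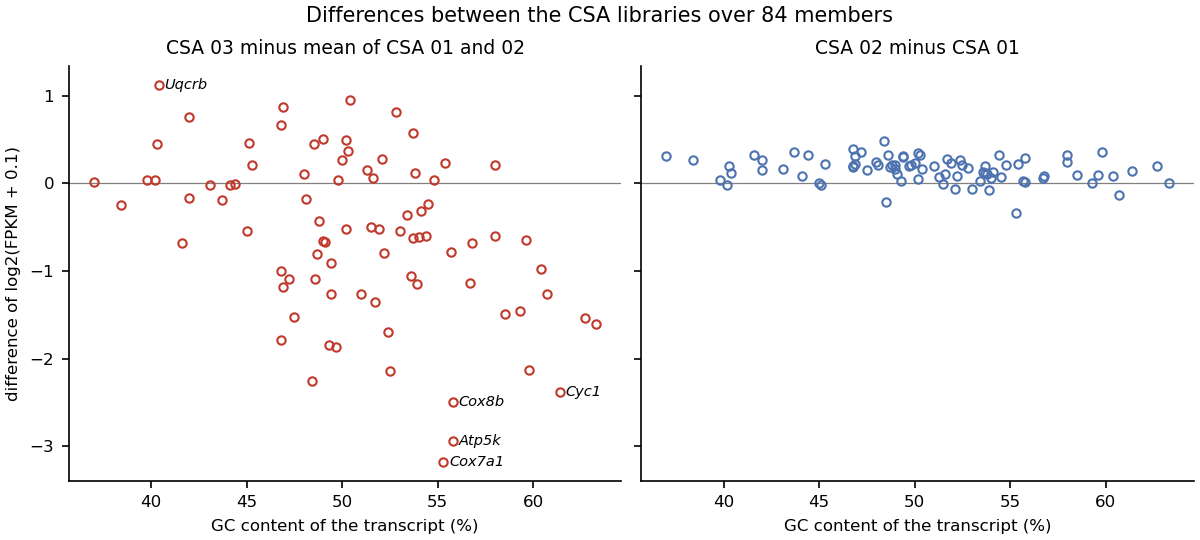
Difference of log2(FPKM + 0.1) between CSA libraries (vertical axis) against GC content of the transcript in percent (horizontal axis), 1 point for each of the 84 tested members. Mouse 03 against the mean of mice 01 and 02 (left) spread with an SD of 0.93, and mouse 02 against mouse 01 (right) with an SD of 0.14.

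Of the 87 members, 84 reached 1 FPKM in at least 3 mice and were tested. The 3 that did not were Cox7b2 and Cox8c, both testis isoforms, and a second Atp5o entry that shares 100.0% of its exonic bases with neighbouring genes. Cox7b2 and Cox8c were listed at 0 in all 12 mice, where 3 fragments would have given 0.254 to 0.427 FPKM. Per unit length, the median tested member averaged 28.4 FPKM over the 12 mice, and the medians by complex were 23.5 FPKM for complex I, 33.8 for complex II, 40.9 for complex III, 37.6 for complex IV and 26.9 for complex V. The members with the highest mean FPKM over the 12 mice were Cox6a1 (224), Cox8a (216) and Cox4i1 (142), all ubiquitous complex IV isoforms, followed by Atp5a1 and Atp5b, the alpha and beta subunits of the catalytic head of ATP synthase, at 130.0 and 113 FPKM. The order of the first 3 varied by group, with Cox4i1 at 151, Cox8a at 146 and Cox6a1 at 143 FPKM in CSA and Cox8a at 294 and Cox6a1 at 289 FPKM in CFS. The lowest was the muscle isoform Cox6a2 at 0.864 FPKM. Over 100 fragments in every library lay behind 74 of the 84 members, which bears on counting error only and not on the spread between mice. Ndufa13, Ndufb6 and Atp5o share over 25% of their exonic bases with other genes, so their values are less certain.

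Summed over all members, FPKM overlapped between the genotypes under Ang II and did not overlap under saline, where shares of all FPKM did overlap. The sum was 3139.9, 3330.2 and 4196 FPKM in CFS mice 68, 69 and 70, and 3024, 3058 and 3025 FPKM in CSS mice 54, 55 and 56. It was 3144, 3509.7 and 3163 FPKM in CFA mice 71, 72 and 74, and 3055, 3452 and 2448 FPKM in CSA mice 01, 02 and 03. The highest and lowest values were those of CFS mouse 70 and CSA mouse 03, in the sum and in each of the 5 complexes. Complex IV summed to 1024 ± 68 FPKM in CFA and to 916 ± 199 FPKM in CSA (SD, n = 3), where CSA mouse 02 at 1095 lay near the top of the CFA range and CSA mouse 03 at 702 lay far below it. Complex III sums were 401 ± 33.2 and 350.3 ± 64.6 FPKM, and complex I sums 1016 ± 67.3 and 931 ± 159.8 FPKM, in CFA and CSA. All members together made up 1.12% ± 0.0493 of all FPKM in CFA and 1.08% ± 0.173 in CSA.

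**Figure D2:**
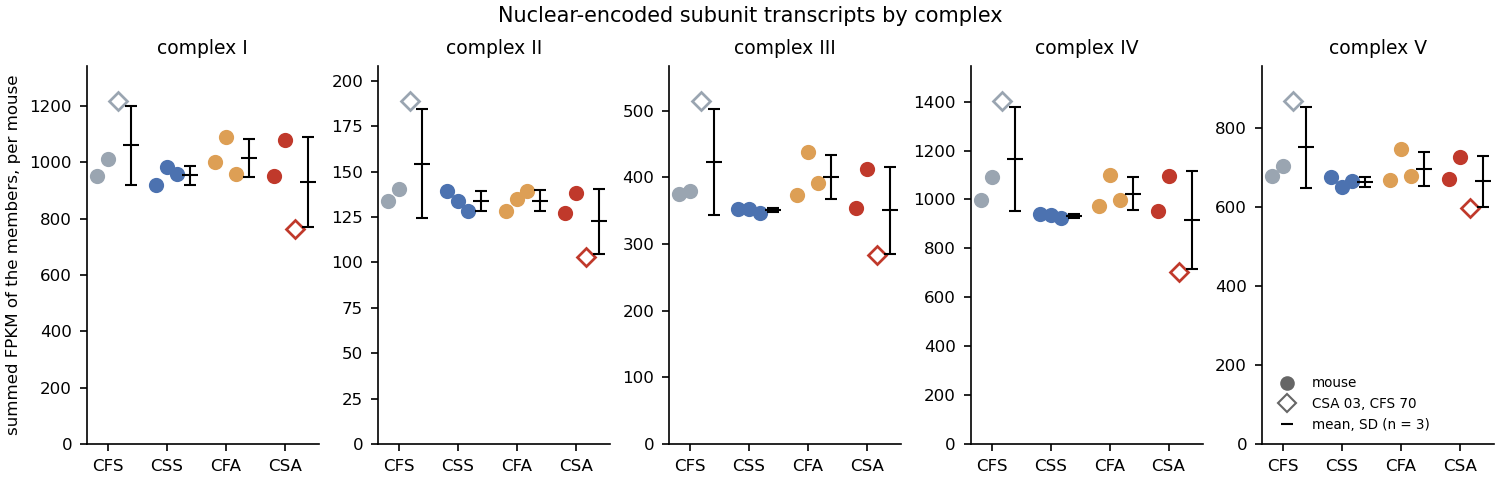
Summed FPKM of the members of each complex in each mouse (vertical axes start at 0), by group, with the mean and SD of 3 mice beside the points. CFS mouse 70 and CSA mouse 03 are open diamonds, at 4196 and 2448 FPKM over all members, and the other mice lie between 3024 and 3509.7.

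In CSA against CFA, the nuclear-encoded subunits moved little as a group, and single members moved in both directions. Ndufs4 and Atp5j2 were higher and Cox8b, Cox7a1, Sdhc, Ndufv3, Ndufb10, Ndufs7 and Atp5a1 were lower. Thus 2 of 84 members were higher, where 19.5% of all 14676 tested genes were, and 7 were lower, where 21.2% of all genes were. In either direction 10.7% of members passed, beside 40.7% of all genes. These calls are from limma on log2(FPKM + 0.1) over all 12 mice, at an adjusted p (Benjamini-Hochberg over all tested genes) under 0.05, and on this scale the fold change of a low gene depends on the 0.1 added. The median log2 fold change of the members was -0.12, beside -0.04 over all genes, and the median absolute value was 0.28, beside 0.54. For 64 of the 84 members the 95% interval of the log2 fold change lay within -1 to 1, and for 15 within -0.5 to 0.5. Scaling all libraries to a common total moved the balance to 5 higher and 4 lower, beside 22.1% and 18.7% of all genes.

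Without CSA mouse 03, 7 members were higher, beside 23.8% of all genes, and 8 lower, beside 24.9%, with a member median of -0.03 and 78 intervals within -1 to 1. Of the 9 calls made with all mice, 8 were shared, and Ndufb10 was lost (adjusted p = 0.0502). The 7 gained calls were Atp5e, Cox5a, Ndufa8, Ndufc2 and Uqcrq as higher and Ndufs1 and Sdha as lower. Medians by complex with all mice and without mouse 03 were -0.14 and -0.09 for complex I, -0.14 and -0.10 for complex II, and -0.35 and -0.10 for complex III. For complexes IV and V they were 0.04 and 0.13, and -0.03 and 0.22.

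**Figure D3:**
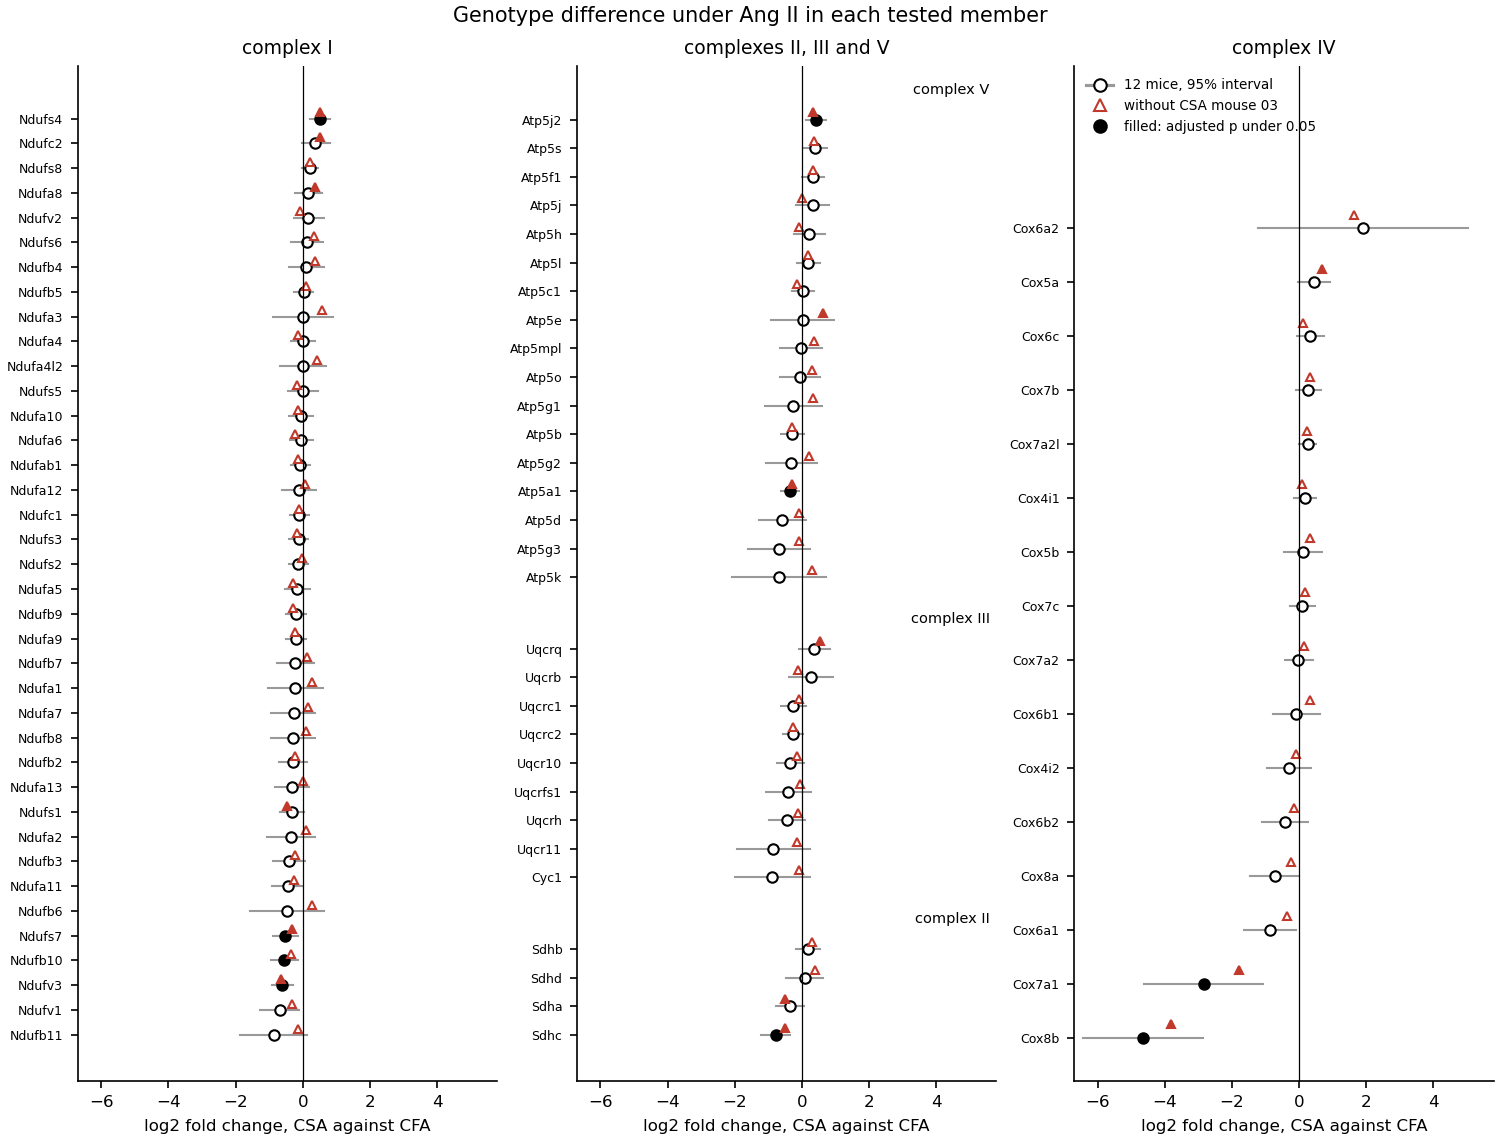
Log2 fold change of CSA against CFA (horizontal axis) for each of the 84 tested members, by complex. Circles with lines give the estimate and 95% interval from 12 mice, triangles the estimate without CSA mouse 03, and filled symbols an adjusted p under 0.05. Most points lie within -1 to 1, and Cox8b (-4.64) and Cox7a1 (-2.84) lie farthest to the left.

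Among the 38 complex I members, 1 was higher and 3 were lower, beside 19.5% and 21.2% of all genes. Ndufs4 (ENSMUSG00000021764, chr13:114287795-114388258 on the minus strand of mm10), an accessory subunit needed for a stable NADH-oxidising arm, stood at 9.39, 10.3 and 8.97 FPKM in CFA and at 13.0, 14.6 and 13.6 FPKM in CSA. All 3 CSA mice lay above all 9 other mice, whose highest value was 10.1 in CFS and 10.3 in CFA. Its log2 fold change was 0.52 (SE 0.14, adjusted p = 0.0110 by limma). It passed in all 22 other settings run for single members (adjusted p 0.00102 to 0.0428), except that it does not reach the log2 fold limit of 1.5. Ndufv3, an accessory subunit of the same arm, stood at 24.7, 17.7 and 23.6 FPKM in CFA and at 13.4, 14.1 and 15.3 FPKM in CSA, again with no overlap (-0.61, SE 0.14, adjusted p = 0.00583). Mouse 03 was the highest of the CSA mice for this gene, so that the difference was slightly larger without it (-0.66), and the call was lost with only these groups fitted (adjusted p = 0.0506).

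Ndufs7, which holds the last iron-sulphur cluster before ubiquinone, stood at 27.5, 26.2 and 25.7 FPKM in CFA and at 20.6, 22.1 and 13.6 FPKM in CSA. The groups did not overlap, and the log2 fold change was -0.52 (SE 0.17, adjusted p = 0.0284), with -0.31 without mouse 03 (adjusted p = 0.0210). It was -0.09 (adjusted p = 0.671) after an adjustment for GC content in each library that was chosen after the data were seen. Ndufb10, an accessory subunit of the membrane arm, stood at 44.1, 46.2 and 49.7 FPKM in CFA and at 35.9, 37.3 and 23.9 FPKM in CSA (-0.55, SE 0.18, adjusted p = 0.0309). Its CSA values lay below all CFA values with and without mouse 03. The difference was -0.35 without that mouse (adjusted p = 0.0502, not passing) and -0.41 after the GC adjustment (adjusted p = 0.0132, passing). Both genes were chosen for description after their values were seen, as were Ndufs4, Ndufs1, Ndufc2 and Ndufa8.

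Most of the core and accessory subunits of complex I gave no call. Ndufb11 (-0.86, 95% interval -1.86 to 0.14, adjusted p = 0.156) and the NADH-binding core subunit Ndufv1 (-0.69, -1.28 to -0.10, adjusted p = 0.0622) had the largest estimates, and these shrank to -0.15 and -0.31 without mouse 03. After the GC adjustment Ndufv1 passed as lower (-0.41, adjusted p = 0.0242). At the other end, Ndufa4l2, the hypoxia-inducible paralogue of Ndufa4, had an estimate of 0.00 with an interval from -0.69 to 0.70. Its values were 27.8, 22.1 and 19.0 FPKM in CFA and 31.8, 29.0 and 12.6 FPKM in CSA. It gave 0.42 without mouse 03 (adjusted p = 0.107) and passed as higher after the adjustment for GC content (0.49, adjusted p = 0.0309). Ndufs1, the largest core subunit of the peripheral arm, stood at 7.54, 6.75 and 7.36 FPKM in CFA and 5.20, 5.13 and 7.16 FPKM in CSA, and passed when mouse 03 was left out (-0.47, adjusted p = 0.0149). Ndufc2 and Ndufa8, both accessory subunits, passed as higher in the same setting, at 0.53 (adjusted p = 0.0309) and 0.37 (adjusted p = 0.0318).

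**Figure D4:**
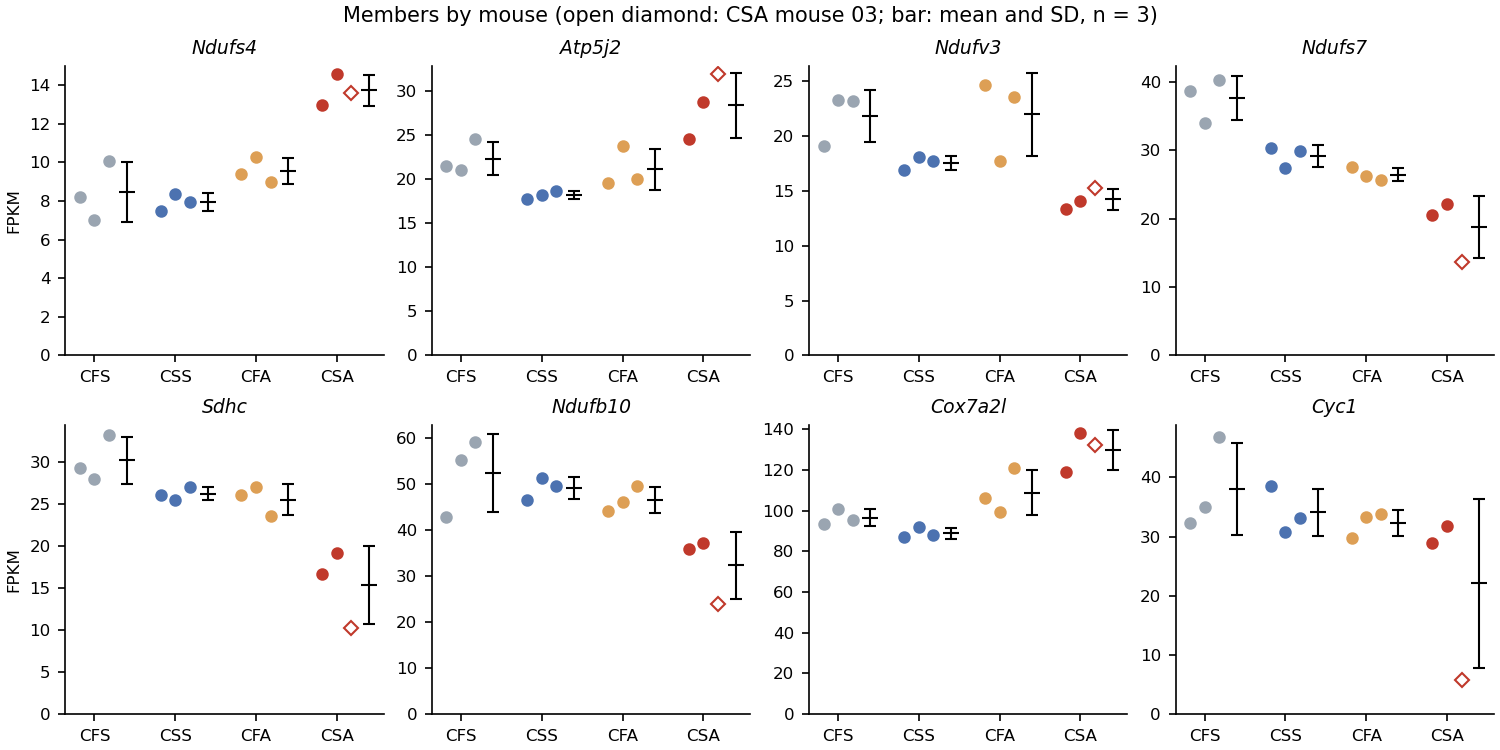
FPKM of 8 members in each mouse (vertical axes start at 0), by group, with the mean and SD of 3 mice beside the points. CSA mouse 03 is an open diamond. Ndufs4 lies above all other groups in CSA, Ndufv3 and Sdhc lie below them, and Cyc1 is low in mouse 03 (5.76) only.

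Of the subunits of complex II, the tricarboxylic acid cycle enzyme succinate dehydrogenase, only Sdhc passed with all mice. It was lower, beside 21.2% of all genes. Sdhc (ENSMUSG00000058076, chr1:171127165-171150603, minus strand), a membrane anchor that helps to form the ubiquinone site, stood at 26.0, 27.0 and 23.5 FPKM in CFA and at 16.7, 19.1 and 10.2 FPKM in CSA. The highest CSA value was below the lowest value of every other group, the difference was -0.77 (SE 0.20, adjusted p = 0.00876), and it was -0.51 without mouse 03 (adjusted p = 0.00238), but it did not pass with only these groups fitted (adjusted p = 0.0661). The other anchor, Sdhd, stood at 43.6, 46.3 and 42.0 FPKM in CFA and 51.8, 63.7 and 30.5 FPKM in CSA, which gave 0.08 (95% interval -0.46 to 0.62, adjusted p = 0.815) and 0.39 without mouse 03 (adjusted p = 0.0819). Sdha, the flavoprotein that oxidises succinate, stood at 39.9, 40.0 and 50.1 FPKM in CFA and 32.7, 28.2 and 41.5 FPKM in CSA. These overlapped (-0.35, adjusted p = 0.154), and Sdha passed without mouse 03 (-0.50, adjusted p = 0.0331). Sdhb, the iron-sulphur subunit, gave 0.18 (interval -0.18 to 0.53, adjusted p = 0.413) and 0.30 without mouse 03 (adjusted p = 0.132), from 21.4 ± 2.43 FPKM in CFA and 24.3 ± 3.33 FPKM in CSA (SD, n = 3).

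In complex III, 0 of 9 members passed with all mice, beside 40.7% of all genes in either direction. Estimates were largest for Cyc1 (-0.88, 95% interval -2.0 to 0.23, adjusted p = 0.191) and Uqcr11 (-0.85, -1.94 to 0.24, adjusted p = 0.194), a small accessory subunit. Both rested on mouse 03, without which they were -0.09 and -0.14. Uqcr11 stood at 41.7, 50.9 and 45.9 FPKM in CFA and at 36.8, 47.1 and 9.47 FPKM in CSA. Uqcrh, the hinge protein that helps cytochrome c dock, gave -0.44 (adjusted p = 0.170), and the core protein Uqcrc1 gave -0.25 (interval -0.61 to 0.11, adjusted p = 0.246), and without mouse 03 they gave -0.11 and -0.07. Without mouse 03 the single call was Uqcrq, a ubiquinone-binding subunit, at 0.55 (adjusted p = 0.0448), with 24.4, 33.2 and 23.2 FPKM in CFA and 34.5 and 44.0 FPKM in CSA mice 01 and 02.

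Complex IV held the members farthest from 0, and they were muscle-type isoforms. Cox8b (ENSMUSG00000025488, chr7:140898945-140900446, minus strand), the heart and muscle isoform of subunit VIII, stood at 5.74, 8.77 and 9.43 FPKM in CFA and at 0.410, 0.524 and 0 FPKM in CSA. Over the 3 mice of each group these are 184 and 7 fragments, and in CSA mouse 03 the limit of 3 fragments was 0.544 FPKM. CSA lay below every mouse of the other groups, of which the lowest was 1.15 FPKM in CSS, and the log2 fold change against CFA was -4.64 (SE 0.81, adjusted p = 0.000937). Without mouse 03 it was -3.81 (adjusted p = 0.00213), and Cox8b passed under every alternative run. Cox7a1 (ENSMUSG00000074218, chr7:30184144-30186078, plus strand), the heart and muscle isoform of subunit VIIa, stood at 2.83, 2.29 and 4.23 FPKM in CFA and at 0.921, 0.705 and 0 FPKM in CSA, or 107 and 18 fragments. It did not overlap with CFA (-2.84, SE 0.80, adjusted p = 0.0152) and gave -1.78 without mouse 03 (adjusted p = 0.0201), while CSA mouse 01 lay above CSS mouse 55 at 0.807 FPKM. In CSA mouse 03, listed at 0, 3 fragments would have given 0.366 FPKM. The Cox7a1 call was lost with only these groups fitted (adjusted p = 0.0553) and without CFA mouse 74 (adjusted p = 0.0565). These 2 were the only members to pass with a log2 fold change under -1.5, which 8.27% of all tested genes did. Over the alternatives the estimates ranged from -5.13 to -2.77 for Cox8b and from -3.46 to -1.44 for Cox7a1.

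The ubiquitous partners of these isoforms, which are far more abundant, did not pass. Cox8a stood at 195, 232 and 230.5 FPKM in CFA and at 180.5, 193 and 66.1 FPKM in CSA, without overlap (-0.73, 95% interval -1.46 to 0.01, adjusted p = 0.105), and gave -0.23 without mouse 03. Cox7a2 stood at 53.6, 52.0 and 41.9 FPKM in CFA and 50.2, 59.0 and 38 FPKM in CSA, giving -0.02 (interval -0.43 to 0.40, adjusted p = 0.953) and 0.16 without mouse 03. As a share of the Cox8b and Cox8a total in FPKM, Cox8b made up 2.86%, 3.65% and 3.93% in CFA and 0.227%, 0.271% and 0% in CSA. Cox7a1 made up 5.02%, 4.22% and 9.18% of its pair in CFA and 1.80%, 1.18% and 0% in CSA. Over the 6 restricted isoforms tested, 2 passed as lower by limma, beside 21.2% of all genes, and the median was -0.36. Over the 8 ubiquitous partners 0 passed in either direction, beside 40.7% of all genes, and the median was 0.00. The lists were not tested against each other. Among the partners, Cox6a1 lay farthest from 0 (-0.88, adjusted p = 0.0686 by limma, and -0.36 without mouse 03, adjusted p = 0.0995). Of these partners Cox7a2l passed as higher in 4 of 22 alternatives, and Cox6a1 in 2 and Cox8a in 1 as lower.

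The restricted isoforms Cox6a2, Cox4i2 and Cox6b2 did not pass. Cox6a2, the heart and muscle isoform of subunit VIa, stood at 0.338, 0.208 and 0.0694 FPKM in CFA and 0.724, 0.832 and 1.44 FPKM in CSA, which did not overlap but rested on 9 and 37 fragments (1.90, 95% interval -1.23 to 5.03, adjusted p = 0.312). Its highest values were 3.18 FPKM in CFS mouse 68 and 3.41 FPKM in CSS mouse 55. The skeletal muscle markers summed to 195 and 321 FPKM in those 2 libraries and to at most 6.38 FPKM in the others. Cox4i2, the lung isoform of subunit IV, gave -0.31 (interval -0.97 to 0.35, adjusted p = 0.434), and the testis isoform Cox6b2 gave -0.41 (-1.10 to 0.28, adjusted p = 0.319). Without mouse 03 these were -0.09 and -0.15, and Cox6a2 was 1.63. Their partners gave 0.17 for Cox4i1 (adjusted p = 0.374) and -0.08 for Cox6b1 (adjusted p = 0.865), or 0.10 and 0.34 without mouse 03, and Cox7b gave 0.28 (adjusted p = 0.210).

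Some markers of fat were lower in CSA than in CFA, as Cox8b and Cox7a1 were. Of the 8 brown adipocyte markers 5 were tested and 3 were lower in CSA than in CFA, and the list summed to 29.3 to 52.1 FPKM in CFA and to 6.47 to 8.57 FPKM in CSA. Cidea, a lipid droplet protein of brown fat, stood at 6.19, 7.29 and 7.25 FPKM in CFA and at 0.296, 0.243 and 0 FPKM in CSA (-4.87, SE 0.56, adjusted p = 5.62e-05). Ucp1, which defines brown fat, was near the floor in most mice, with 0.870, 1.96 and 2.05 FPKM in CFA, 0.0301, 0.490 and 0.519 FPKM in CSA and 18.4 FPKM in CFS mouse 70, the mouse that was also highest for Cox8b (16.1 FPKM) and Cox7a1 (6.72 FPKM). Cidea (15.2 FPKM) and Ebf2 (2.79 FPKM) were also highest in CFS mouse 70, whereas Prdm16 (17.4 FPKM) and Dio2 (6.24 FPKM) were not. Of the 8 white adipocyte markers 3 were lower in CSA than in CFA, beside the same 21.2% of all genes. Adipoq, Cfd, Fabp4, Lipe and Cidec did not pass. All 8 smooth muscle markers were lower, with a median of -2.99. The part of fat or of smooth muscle in the values of Cox8b and Cox7a1 was not tested.

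**Figure D5:**
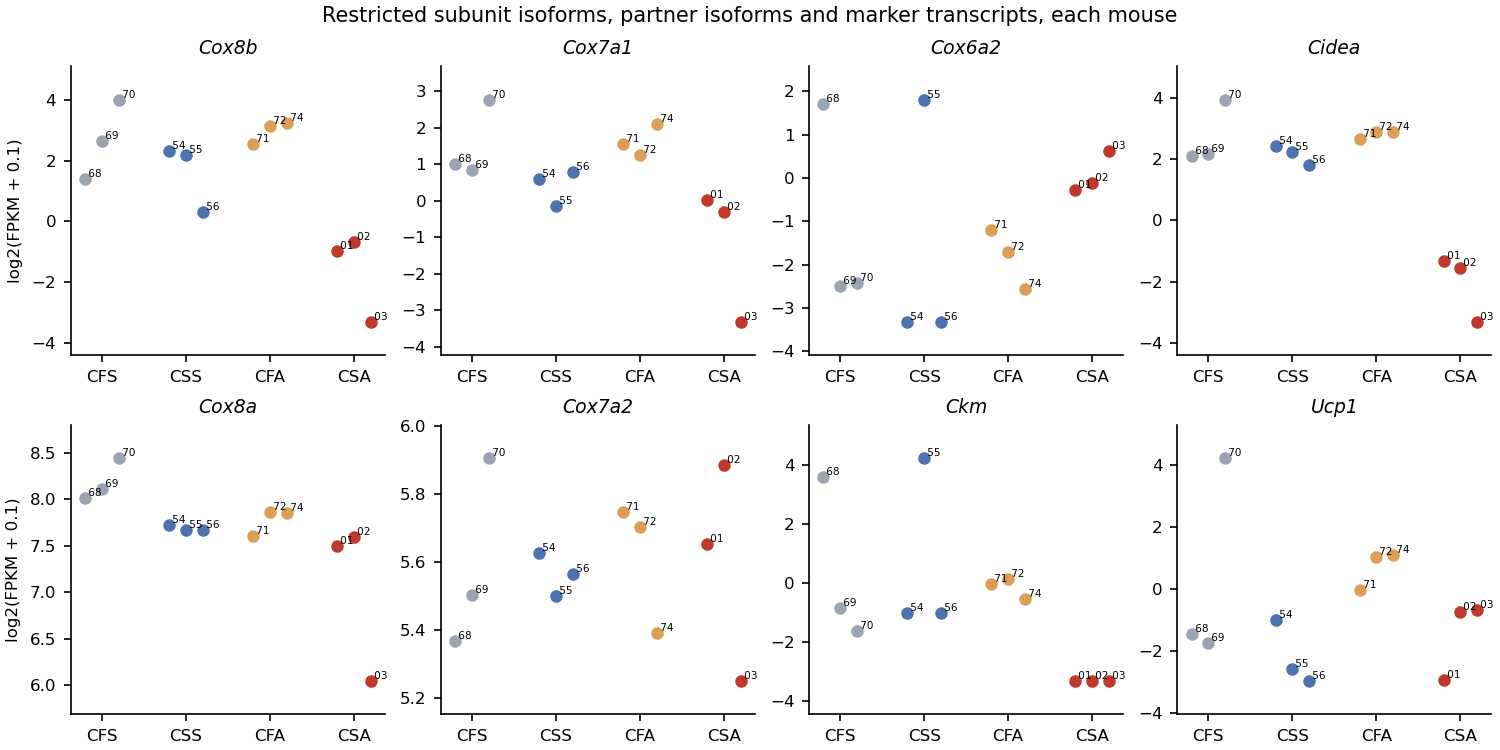
Log2(FPKM + 0.1) of restricted isoforms, ubiquitous partners and marker transcripts in each mouse (vertical axes do not start at 0 and differ between panels), with mouse numbers beside the points. Cox8b and Cidea are lowest in the 3 CSA mice, and Cox6a2 and Ckm are highest in CFS mouse 68 and CSS mouse 55.

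Promoters are shown for the 2 isoforms that fell, for their partners, and for the most abundant member and a member with a match to the NRF1 core, to set the muscle-type promoters beside housekeeping ones. Each run is the 150 bases directly before the RefSeq transcript start (GRCm38.p6), in the direction of transcription, with any motif match in capitals. Cox8b lies at chr7:140900447-140900596 on the minus strand and Cox8a at chr19:7217617-7217766 on the minus strand. Cox7a1 lies at chr7:30184021-30184170 on the plus strand and Cox7a2 at chr9:79759854-79760003 on the minus strand. Cox6a1 lies at chr5:115348959-115349108 on the minus strand and Sdhb at chr4:140961121-140961270 on the plus strand.
Cox8b: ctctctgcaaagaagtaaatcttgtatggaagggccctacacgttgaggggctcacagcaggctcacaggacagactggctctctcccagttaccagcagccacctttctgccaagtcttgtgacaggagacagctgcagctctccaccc
Cox8a: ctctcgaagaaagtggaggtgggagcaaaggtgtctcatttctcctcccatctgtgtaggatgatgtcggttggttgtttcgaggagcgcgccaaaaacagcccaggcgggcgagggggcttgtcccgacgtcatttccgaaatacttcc
Cox7a1: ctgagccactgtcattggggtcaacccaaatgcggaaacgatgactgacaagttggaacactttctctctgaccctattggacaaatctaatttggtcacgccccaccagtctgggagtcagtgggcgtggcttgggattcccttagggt
Cox7a2: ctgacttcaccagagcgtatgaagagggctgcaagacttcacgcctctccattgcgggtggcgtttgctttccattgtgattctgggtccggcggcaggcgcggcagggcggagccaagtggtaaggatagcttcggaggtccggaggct
Cox6a1: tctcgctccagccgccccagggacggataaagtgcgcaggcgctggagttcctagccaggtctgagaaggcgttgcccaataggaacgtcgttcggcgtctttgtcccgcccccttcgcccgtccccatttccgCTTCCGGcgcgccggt
Sdhb: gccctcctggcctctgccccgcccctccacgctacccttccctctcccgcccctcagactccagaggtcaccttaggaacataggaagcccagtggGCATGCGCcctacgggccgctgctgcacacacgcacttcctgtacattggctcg

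In these runs, Cox6a1 holds CTTCCGG, the ETS family core on the other strand, 16 bases before the start. Sdhb holds GCATGCGC, the NRF1 core on the other strand, 54 bases before the start. Beyond its printed run, Cox6a1 also matches the NRF1 core at 162 and 160 bases before the start. None of the 4 isoform runs of Cox8b, Cox8a, Cox7a1 and Cox7a2 holds a capital. In the 300-base windows described below, which run past the start, Cox8a and Sdhb also match the ETS core. Cox8b, Cox7a1 and Cox7a2 match none of the motifs searched there. NRF1 and the ETS family factor GABP (NRF2) are known as regulators of respiratory chain genes. Over the 300 bases from 250 before to 50 after the start, on both strands, the NRF1 core GCGCATGC was found in 10 of the 67 member symbols that matched RefSeq promoters (14.9%), beside 3.05% of all 27025 genes. The ETS core CCGGAAG was found in 16 members (23.9%, beside 9.93%), the YY1 core AAGATGGC in 9 (13.4%, beside 3.19%) and the ERR site AAGGTCA in 8 (11.9%, beside 5.38%). The MEF2 core TATTTTTA was found in 0 of 67 members, beside 3.09% of all genes. Median GC content of these windows was 57.3% for members and 52.8% for all genes, and such matches describe letters, not binding.

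Among 17 tested complex V members, 1 was higher and 1 was lower, beside 19.5% and 21.2% of all genes. Atp5j2 (ENSMUSG00000038690, chr5:145183698-145192062, minus strand), the f subunit of the membrane part, stood at 19.5, 23.8 and 20.0 FPKM in CFA and at 24.5, 28.7 and 31.9 FPKM in CSA, just without overlap (0.42, SE 0.13, adjusted p = 0.0240). Mouse 03 was the highest for this gene, and without it the difference was 0.33 (adjusted p = 0.0353). The call was lost in 4 of 22 alternatives, with an adjusted p of up to 0.128. Atp5a1, which forms the catalytic head with Atp5b, stood at 126, 133 and 129.9 FPKM in CFA and at 104, 109 and 90.7 FPKM in CSA, below every mouse of the other groups (-0.36, SE 0.12, adjusted p = 0.0337). Without mouse 03 it gave -0.28 (adjusted p = 0.0395). After the GC adjustment it gave -0.19 (adjusted p = 0.230). Its partner Atp5b gave -0.28 (95% interval -0.61 to 0.05, adjusted p = 0.158).

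Several small subunits of the membrane part and stalk of complex V depended on mouse 03. Atp5g3, 1 of the genes for the c-ring, gave -0.68 (95% interval -1.60 to 0.23, adjusted p = 0.213) with all mice and -0.07 without mouse 03. Atp5k gave -0.68 (adjusted p = 0.420) and 0.30, and Atp5d, the delta subunit of the central stalk, gave -0.58 (adjusted p = 0.178) and -0.09. Atp5e, the epsilon subunit beside it, stood at 39.7, 52.9 and 36.1 FPKM in CFA and at 61.7, 70.8 and 18.1 FPKM in CSA. It gave 0.02 (interval -0.93 to 0.97, adjusted p = 0.977) with all mice and passed as higher at 0.64 (adjusted p = 0.0393) without mouse 03. Cox5a of complex IV behaved alike, with 11.7, 13.8 and 11.7 FPKM in CFA, 17.6, 22.1 and 12.3 FPKM in CSA, 0.44 (adjusted p = 0.123) with all mice and 0.67 (adjusted p = 0.00979) without mouse 03.

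Under saline, CSS against CFS gave 0 calls among the 84 members by limma, while 0.0204% of all genes passed. At an unadjusted p under 0.05 there were 7 members, beside 6.30% of all genes, and weighting libraries by their quality gave 2 lower calls, beside 0.450% of all genes. Estimates were negative in 69 of the 84 members, with a median of -0.17 beside 0.01 over all genes, and the median was -0.07 once CFS mouse 70 was left out. Ndufb9, an accessory membrane-arm subunit, stood at 36.4, 31.1 and 40.8 FPKM in CFS and at 25.7, 22.8 and 23.8 FPKM in CSS, without overlap (-0.58, 95% interval -0.88 to -0.27, adjusted p = 0.332, and -0.48 without CFS mouse 70). Uqcr10, a small complex III subunit, stood at 92.2, 88.7 and 104 FPKM in CFS and at 59.9, 68.3 and 64.5 FPKM in CSS (-0.56, adjusted p = 0.562), and Ndufa10, an accessory complex I subunit, gave -0.45 (adjusted p = 0.620). Without CFS mouse 70 these were -0.49 and -0.32. In all 3 the CFS mice lay above the CSS mice with or without CFS mouse 70. They were named for the smallest p in this same comparison, so their lack of overlap carries no separate weight.

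In the floxed controls, CFA against CFS also gave 0 calls among the members by limma, while 0.0341% of all genes passed. At an unadjusted p under 0.05 there were 6 members, beside 9.42% of all genes, and weighted libraries gave 1 lower call, beside 1.12% of all genes. The member median was -0.06, and 0.05 without CFS mouse 70. Ndufs7 had the smallest p, with 38.7, 34.0 and 40.3 FPKM in CFS and 27.5, 26.2 and 25.7 FPKM in CFA (-0.51, 95% interval -0.88 to -0.13, adjusted p = 0.345), and it was the 1 lower call when CSA mouse 03 was left out of the fit, where 0.116% of all genes were lower. Ndufb9 gave -0.35 (adjusted p = 0.444) and Ndufa10 gave -0.40 (adjusted p = 0.447). Without CFS mouse 70, Ndufs7, Ndufb9 and Ndufa10 gave -0.45, -0.26 and -0.27. These comparisons share the CFS mice with those under saline, so their likeness carries no separate weight.

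Within CCN2SMCΔ mice, Ang II against saline (CSA against CSS) gave 8 higher members, beside 22.3% of all genes, and 7 lower members, beside 23.9%, with a median of 0.00. The smallest p-values were those of Ndufs4, Atp5j2 and Cox7a2l. Ndufs4 rose from 7.47, 8.39 and 7.96 FPKM in CSS to 13.0, 14.6 and 13.6 FPKM in CSA (0.78, SE 0.14, adjusted p = 0.000763). Atp5j2 rose from 17.7, 18.2 and 18.7 FPKM to 24.5, 28.7 and 31.9 FPKM (0.63, SE 0.13, adjusted p = 0.00227). Cox7a2l, which helps to join complexes III and IV in supercomplexes, rose from 86.9, 91.7 and 87.8 FPKM to 119, 138 and 132 FPKM (0.54, SE 0.11, adjusted p = 0.00251). In each of these 3, picked by their p, the 2 groups were far apart. CSA mouse 03 lay within or above the other CSA mice in each. The other higher calls were Atp5f1, Cox7b, Cox7c, Ndufc2 and Uqcrq, and the lower calls were Atp5a1, Cox8b, Ndufa11, Ndufb10, Ndufs7, Ndufv1 and Sdhc. Without mouse 03, 19 members were higher, beside 26.0% of all genes, and 8 lower, beside 27.5%, and 14 of the 15 calls were shared.

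The genotype by Ang II interaction, which is the Ang II effect in CCN2SMCΔ mice minus that in CCN2fl/fl mice, passed for 3 members, 2 higher and 1 lower, beside 26.4% of all genes in either direction. For Atp5j2 the Ang II effect was 0.63 in CCN2SMCΔ mice and -0.08 in CCN2fl/fl mice (difference 0.71, SE 0.18, adjusted p = 0.0155 by limma). Ndufs4 gave 0.78 and 0.19 (difference 0.60, SE 0.19, adjusted p = 0.0436), and 0.49 after the adjustment for GC content (adjusted p = 0.135). Cox8b gave -3.28 and 0.29 (difference -3.56, SE 1.15, adjusted p = 0.0418), and it did not pass without mouse 03 (-2.73, adjusted p = 0.0589). Of 21 alternatives, Atp5j2 passed in 21 and Ndufs4 and Cox8b in 10 each. Without mouse 03 Atp5j2, Ndufs4, Atp5mpl, Cox5a, Cox6c, Ndufc2 and Ndufs8 passed as higher, beside 16.9% of all genes, and 0 members as lower by limma, beside 19.1% of all genes and 1 member with all mice.

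Other mitochondrial gene lists were counted in CSA against CFA in the same way, where 19.5% of all genes were higher and 21.2% lower. All 13 subunits encoded by the mitochondrial genome had negative estimates and 10 passed as lower, with a median of -1.10, beside -0.12 for the nuclear-encoded members and -0.04 over all genes. Their FPKM summed to 30773, 33274 and 32797 in CFA and to 12081, 11893 and 24814 in CSA, so that mouse 03, low in many nuclear-encoded members, was the highest CSA mouse here. The complex I subunit mt-Nd4l stood at 30.0, 29.4 and 30.3 FPKM in CFA and at 9.45, 9.36 and 8.13 FPKM in CSA (-1.73, SE 0.15, adjusted p = 8.19e-06), and mt-Nd2 gave -1.54 (SE 0.24, adjusted p = 0.000432). Under saline the 13 summed to 38646, 35211 and 37670.0 FPKM in CFS and to 24011, 22344 and 21814 FPKM in CSS, without overlap, with a median of -0.65 and 0 calls by limma (8 lower calls without CSA mouse 03, where 0.198% of all genes were lower). The library was selected for poly(A), and the part of that selection in these levels was not tested.

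Among enzymes that feed the chain, calls were set beside the same 19.5% higher and 21.2% lower of all genes, or 23.8% and 24.9% without mouse 03. Of 14 tricarboxylic acid cycle genes 6 were lower and 0 higher (median -0.36), and without mouse 03 these were 9 and 0. Ogdh, a subunit of the 2-oxoglutarate dehydrogenase complex, stood at 57.0, 52.7 and 52.7 FPKM in CFA and at 28.5, 24.3 and 31.6 FPKM in CSA (-0.95, SE 0.12, adjusted p = 0.000126). Of 15 tested fatty acid oxidation genes 5 were lower and 0 higher (median -0.44), with Hadh at -1.15 (adjusted p = 0.000873) and Acadm at -1.06 (adjusted p = 0.00177). Of 39 tested assembly factors for these complexes 4 were higher and 1 was lower (median 0.07), and without mouse 03 these were 7 and 1 (0.14). Cox17, the copper chaperone for complex IV, stood at 1.20, 1.04 and 1.32 FPKM in CFA and at 2.0, 1.93 and 2.40 FPKM in CSA (0.78, SE 0.21, adjusted p = 0.0130), while Ndufaf8 gave -1.07 (adjusted p = 0.225) with all mice and -0.01 without mouse 03.

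Regulators of mitochondrial gene expression gave 1 higher and 1 lower call among 13 tested (median -0.10), and 2 of each without mouse 03 (median 0.12). Ppargc1a, Ppara, Esrrb and Esrrg missed the filter and were not tested. Ppargc1a stood at 0.334, 0.372 and 0.658 FPKM in CFA and at 0.0747, 0.129 and 0.0594 FPKM in CSA. Ppara stood at 0.610, 0.639 and 0.603 FPKM in CFA and at 0.141, 0.0492 and 0 FPKM in CSA. Esrrb and Esrrg were at most 0.259 FPKM in CFA. Over all genes 19.5% were higher and 21.2% lower, or 23.8% and 24.9% without mouse 03. Gabpb1, a subunit of GABP, gave 0.77 (SE 0.26, adjusted p = 0.0367), and Tfb1m, which methylates mitochondrial ribosomal RNA, gave -0.94 (SE 0.32, adjusted p = 0.0349). Both had mouse 03 at the far end, with 7.42 FPKM beside 3.35 and 3.61 for Gabpb1 and 0.380 FPKM beside 0.901 and 0.888 for Tfb1m. Without that mouse Tfb1m did not pass (-0.59, adjusted p = 0.0697) and Gabpb1 gave 0.41 (adjusted p = 0.0458), while Esrra passed as higher and Gabpa and Tfb2m as lower. Of 15 genes of the mitochondrial membranes 3 were higher and 2 lower (median 0.04), beside the same shares of all genes. Without mouse 03 these were 5 and 2. The adenine nucleotide carriers went in opposite directions, with Slc25a5 at 0.53 (SE 0.17, adjusted p = 0.0292) and the muscle-type Slc25a4 at -0.52 (SE 0.15, adjusted p = 0.0158).

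Several lists of cell type markers gave calls in CSA against CFA, where 19.5% of all genes were higher and 21.2% lower. The part of these cell types in the member values was not tested. Smooth muscle markers gave 0 higher and 8 lower calls, with Myh11 at -4.17 (adjusted p = 8.05e-08) and Cnn1 at -3.80 (adjusted p = 2.26e-06). All 8 macrophage markers were higher (median 2.71), as were all 6 tested neutrophil markers (median 4.80) and 6 of 8 proliferation markers (median 1.59). Without mouse 03, Mrc1, Mki67 and Ccnb1 of these lists did not pass (adjusted p = 0.0826, 0.142 and 0.0674 by limma). Macrophage markers summed to 287 to 582 FPKM in CFA and to 1885 to 2029 FPKM in CSA, and neutrophil markers to 11.1 to 28.0 FPKM and 515 to 558 FPKM. Of 5 tested skeletal muscle markers 0 passed by limma in either direction, with Ckm at 0.583 to 1.0 FPKM in CFA and 0 in all CSA mice. Of 3 tested heart muscle markers 2 were lower, Myh6 (-3.03, adjusted p = 0.00207) and Ryr2 (-2.58, adjusted p = 1.34e-05), and 1 was higher.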

How the data were processed

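Abdominal aortas of 12 mice were analysed, and groups and mouse numbers came from the sample labels. The authors deposited 1 table of FPKM values, and 0 of its columns were left unused. The submitters' processing notes name HISAT2 2.0.5, StringTie 1.3.3b, featureCounts 1.5.0-p3 and mm10. No source used here describes scaling between libraries, and median-of-ratios factors of the deposited FPKM were 1 in every library. Fragment numbers were recovered from FPKM steps and gene length, and 98.05% to 98.53% of values were whole within 0.05. Biotypes came from GENCODE M21, whose symbols matched 54495 of 55092 features. Genes with at least 1 FPKM in 3 libraries were tested on log2(FPKM + 0.1) with limma 3.58.1 in R 4.3.3 (1 coefficient per group, eBayes with trend and robust), which was tested on simulated data, with Benjamini-Hochberg adjustment over 14676 genes per comparison. Tables were made with pandas 2.3.3 under Python 3.11.15 and plots with matplotlib 3.10.9, and numpy was at 2.4.6. Members, lists and tests were chosen with earlier results of these data known. Named were, per complex, the 3 members with the largest and the 1 with the smallest absolute log2 fold change in CSA against CFA, the restricted isoforms and partners, complex II, up to 3 members with the smallest p in each other comparison, and 2 genes per other list, 1 of which is not reported here. Others were named after their values were seen. Alternatives were another pseudocount, no filter, a mean FPKM of at least 5, common scaling, median-of-ratios scaling, protein-coding genes only and no trend. Further ones were array weights, only the groups compared, a fold limit of 1.5 on the log2 scale and each mouse left out. GC adjustment, with or without CSA mouse 03, was added after the data were seen. Recovered fragments are not independent molecules, so limits from 3 fragments cover counting error only.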

Additional observations from a re-analysis of the deposited data

Results flagged for a closer look

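The Ang II effect differed between genotypes for 3 members by the interaction test in limma. For Atp5j2 the difference was 0.71 on the log2 scale (adjusted p = 0.0155), with all 3 CSA mice above all CSS and CFA mice but CSA mouse 01 level with CFS mouse 70 (both 24.5 FPKM), and it passed in 21 of 21 alternatives (adjusted p 0.00128 to 0.0449). Ndufs4 differed by 0.60 (adjusted p = 0.0436), again with all 3 CSA mice above all CSS and CFA mice. It passed in 10 of 21 alternatives (adjusted p 0.00537 to 0.135), and gave 0.49 after the adjustment for GC content (adjusted p = 0.135) and 0.46 without CFS mouse 70 (adjusted p = 0.0949). For Cox8b the difference was -3.56 (adjusted p = 0.0418), with all 3 CSA mice below all other mice, on 7 fragments over the group. It passed in 10 of 21 alternatives (adjusted p 0.0234 to 0.0983), with estimates from -4.22 to -1.89, and gave -2.73 without CSA mouse 03 (adjusted p = 0.0589). The part of cell type markers in these differences was not tested.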

How the results depend on the processing

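Shares of all tested genes called under the same setting stand in parentheses. With all mice, 2 members were higher and 7 lower in CSA against CFA. The higher count was 5 with a common total (22.1%), 6 with protein-coding genes only (24.3%), 15 with array weights (28.2%), 6 with GC adjustment (25%), 8 with GC adjustment and without CSA mouse 03 (25.2%), and 0 with the fold limit (8.95%). The lower count was 4 with a common total (18.7%), 4 with protein-coding genes only (20.2%), 1, Cox8b, with only the groups compared (14.1%) and 2 with the fold limit (8.27%). Leaving out 1 mouse at a time gave 1 to 7 higher (15.8% to 23.8%) and 4 to 14 lower members (17.1% to 24.9%), with 7 higher without CSA mouse 03 and 14 lower without CSA mouse 02. In CSS against CFS, array weights gave 2 lower members (0.450%). In CFA against CFS, array weights gave 1 lower member (1.12%), as did GC adjustment without CSA mouse 03 (0.136%), and leaving out 1 mouse gave 0 to 1 (0% to 0.218%). In CSA against CSS (8 higher, 7 lower), the higher count was 24 with array weights (30.0%), 5 with only the groups compared (19.0%), 21 with GC adjustment and without CSA mouse 03 (27.9%), 0 with the fold limit (10.9%) and 5 to 19 with 1 mouse left out (19.2% to 26.0%). The lower count was 11 (32.0%), 3 (18.6%), 8 (26.1%), 1 (9.36%) and 5 to 11 (19.6% to 27.5%) under the same settings. For the interaction (2 higher, 1 lower), the higher count was 1 without the filter (6.02%), 4 with protein-coding genes only (14.8%), 1 without trend and robust (12.8%), 14 with array weights (20.6%), 4 with GC adjustment (16.8%), 8 with GC adjustment and without CSA mouse 03 (18.2%), 0 with the fold limit (7.89%) and 1 to 7 with 1 mouse left out (9.89% to 16.9%). The lower count was 0 with a pseudocount of 1 (13.7%), without the filter (5.74%), without trend and robust (13.3%), and with GC adjustment and without CSA mouse 03 (18.3%), 3 with array weights (22.6%) and 0 to 2 with 1 mouse left out (10.9% to 19.1%).

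Estimates of 7 named members in CSA against CFA changed sign. Cox7a2 (-0.02) gave 0.06 with a common total, 0.07 with protein-coding genes only, 0.12 with array weights, 0.06 with GC adjustment, and -0.16 to 0.16 with 1 mouse left out. Atp5k (-0.68) gave 0.38 with array weights and -1.18 to 0.30 with 1 mouse left out. Ndufa4 (0.01) gave -0.10 with array weights and -0.10 with GC adjustment, and -0.14 to 0.14 with 1 mouse left out. Cox6b1 (-0.08) gave 0.01 with protein-coding genes only, 0.38 with array weights and -0.34 to 0.34 with 1 mouse left out. With 1 mouse left out, Atp5e (0.02) ranged from -0.34 to 0.64, Sdhd (0.08) from -0.14 to 0.39 and Ndufa8 (0.17) from -0.01 to 0.37. Ndufa4l2 (0.00) ranged from -0.24 to 0.49 over all its settings. The cause of these moves was not tested beyond the mouse left out.

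Of the calls in CSA against CFA, Cox8b passed under every alternative run, and with the fold limit only Cox8b and Cox7a1 passed. Apart from that limit, Ndufs4 passed in all 22 settings. Sdhc and Ndufv3 were lost with only the groups compared (adjusted p = 0.0661 and 0.0506), and Cox7a1 there (0.0553) and without CFA mouse 74 (0.0565). Atp5j2 was lost there (0.128) and without CFA mouse 71 (0.0907), CFA mouse 74 (0.0758) or CSA mouse 02 (0.0572). Ndufb10 and Ndufs7 were each lost in 8 settings and Atp5a1 in 11. With 1 mouse left out, complex medians in CSA against CFA ranged most for complex III (-0.51 to -0.10) and complex V (-0.30 to 0.22). No paired analysis was run, because each library came from a different mouse and the sample labels name no pairs. Depth limits Cox8b, Cox7a1 and Cox6a2, with 7, 18 and 37 fragments in CSA.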
